A study of Mus musculus with 9 samples.

Results

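Circular RNAs (circRNAs, rings) form when a splice donor joins an acceptor upstream of it, and sequencing sees them as reads across that back-splice junction. In mouse liver 146 rings, 1.29% of 11312 listed, came from 40 genes of fatty acid, glycerolipid and sterol handling, 1.02% of 3929 host genes. They were taken by gene symbol alone: acyl-CoA synthetases, dehydrogenases, oxidases, thioesterases and carboxylases, thiolases, carnitine palmitoyltransferases, elongases, desaturases, hydroxysteroid dehydrogenases, HMG-CoA enzymes, DGAT, lipin, patatin-like and oxysterol-binding families, and the PPAR, PGC-1 and SREBP regulators. A ring with joint hosts did not enter, which left out 2. Of the 146 rings, 143 were exonic and 3 intronic, and all 40 gene identifiers matched their symbol in the reference.

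Livers came from wild-type (WT) C57 BL6 mice aged 8 weeks and weighing about 20 g, with 3 libraries in each of 3 groups. Control mice received saline. APAP mice received 500 mg/kg acetaminophen (APAP) into the peritoneum, and dmPGE2+APAP mice received 300 μg/kg dmPGE2, a stable prostaglandin E2 analogue, by the same route 1 h before that dose of APAP. Livers were taken 6 h after APAP. An acetaminophen overdose injures hepatocytes around the central vein. The labels do not tie libraries to animals, so each p-value reflects only how far these samples vary. The count columns of Control carry a code that no label explains and were assigned to it by elimination. In whole liver fewer cells of a type and less RNA per cell cannot be told apart.

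The liver burns fatty acids in mitochondria and peroxisomes, turns part of the product into ketone bodies, and builds fatty acids, triglycerides and cholesterol when fuel is plentiful. A fatty acid is first joined to coenzyme A by an acyl-CoA synthetase. Long chains then enter mitochondria through carnitine palmitoyltransferase, acetyl-CoA carboxylase makes the malonyl-CoA that blocks this entry, and PPAR alpha drives the genes of oxidation. A ring holds only some exons of its host and its abundance is not the abundance of the host's mRNA.

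The sequences shown are the back-splice junctions of 7 of the 10 most abundant rings, each the leading ring of its host, with 2 further Acsm1 rings and an Elovl5 ring that had small unadjusted p-values or shared a junction end, chosen after their values were seen. Each gives the last 20 bases of the ring's last exon in lower case and the first 20 bases of its first exon in capitals, read from GENCODE M21 transcripts (GRCm38, mm10) on the strand of the gene. The 3 Acsm1 junctions share the lower-case bases, because these rings use 1 splice donor with 3 acceptors.
Acaca mmu_circ_0000301 (chr11:84193079-84195687, +, exons 2 to 3): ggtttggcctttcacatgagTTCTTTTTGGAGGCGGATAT
Acadm novel_circ_0009177 (chr3:153933027-153939167, -, exons 3 to 8): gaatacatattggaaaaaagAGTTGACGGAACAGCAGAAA
Lpin2 novel_circ_0005247 (chr17:71222055-71225241, +, exons 3 to 4): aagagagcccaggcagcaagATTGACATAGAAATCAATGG
Acsm1 novel_circ_0012725 (chr7:119633062-119640734, +, exons 3 to 6): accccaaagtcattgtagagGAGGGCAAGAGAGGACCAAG
Acsm1 novel_circ_0012727 (chr7:119636450-119640734, +, exons 4 to 6): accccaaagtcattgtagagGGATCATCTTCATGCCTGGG
Acsm1 novel_circ_0012728 (chr7:119638065-119640734, +, exons 5 to 6): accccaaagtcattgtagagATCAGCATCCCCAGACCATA
Acox2 novel_circ_0003693 (chr14:8241261-8251676, -, exons 8 to 13): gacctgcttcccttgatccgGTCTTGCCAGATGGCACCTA
Acss3 novel_circ_0000019 (chr10:107045213-107053516, -, exons 3 to 5): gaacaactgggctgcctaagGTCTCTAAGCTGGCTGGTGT
Lpin1 novel_circ_0001879 (chr12:16560982-16568519, -, exons 7 to 12): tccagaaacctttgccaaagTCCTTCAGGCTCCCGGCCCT
Elovl5 mmu_circ_0001814 (chr9:77957141-77961053, +, exons 2 to 3): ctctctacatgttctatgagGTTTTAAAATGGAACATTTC

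Depth, here the number of back-splice reads, differed by library. Back-splice reads numbered 154449, 129971 and 4362 in Control 1 to 3, and 69268 to 120531 in the other 6 libraries. Control 3 held 21 reads of these rings, from 7 rings of 6 hosts. In that library 3 reads come to 688 per 1000000 library reads (CPM). In the other 8, here called the deep libraries, they come to 19.4 to 43.3 CPM. A host at 0 in Control 3 may thus have been missed at its depth. Lpin2, at 900.0 and 993 CPM in Control 1 and 2 and spread over 9 rings, also had 0 reads there. The smallest count above 0 in that library was 2. Whether depth accounts for this 0 was not tested. Results that rest on Control 3 are given with and without it. No count of 1 occurs in any library, so a listed 0 may hide a read.

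The 40 hosts together gave 8846 reads and a similar share of every deep library. They made up 0.958%, 1.00% and 0.481% of back-splice reads in Control 1 to 3, 1.09%, 0.961% and 0.790% in APAP, and 0.940%, 0.952% and 1.03% with dmPGE2+APAP. The lowest deep value, APAP 3, has a 95% Wilson interval of 0.726 to 0.858%, which covers counting error only. The group means were 0.814% ± 0.289 (SD, n = 3) in Control, 0.981% ± 0.0329 for Control 1 and 2 alone, 0.946% ± 0.149 in APAP and 0.975% ± 0.0503 with dmPGE2+APAP, so the groups overlapped. Reads were concentrated: the top 5 hosts held 44.2%, and 17 hosts were read in all 8 deep libraries. Of the rings, 20 were read in all 8 and 48 in a single library.

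**Figure D1:**
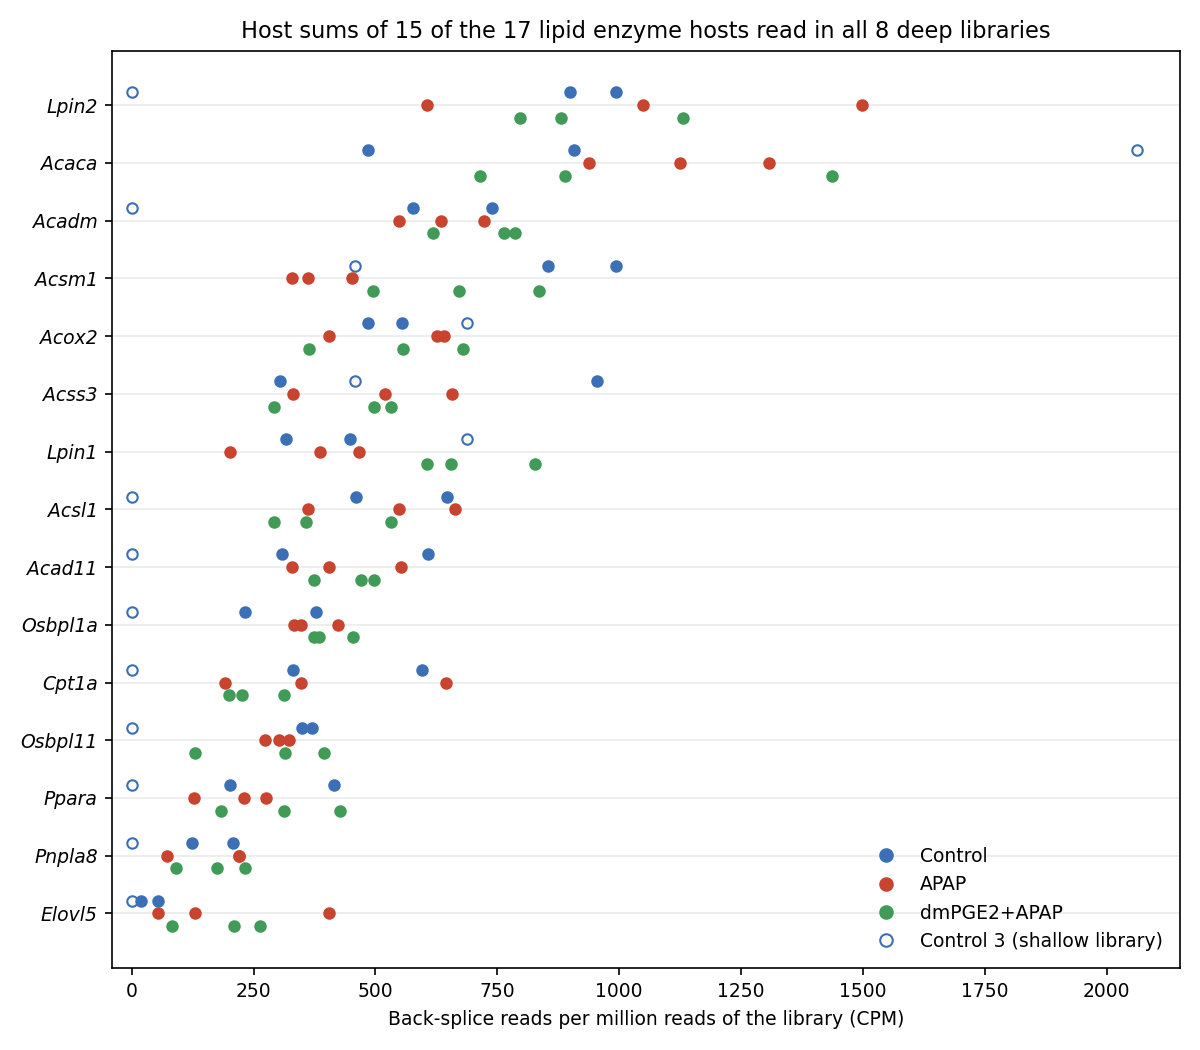
Back-splice reads per 1000000 library reads (x axis, CPM) of 15 of the 17 hosts read in all 8 deep libraries, 1 point per library, coloured by group; the open circle is Control 3, where 3 reads come to 688 CPM. Lpin2 and Acaca lie highest and Elovl5 lowest, and for most hosts the colours interleave.

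Acyl-CoA synthetases held 3 hosts. Acsm1, a mitochondrial synthetase for medium-chain acids, stood at 855, 993 and 459 CPM in Control 1 to 3, at 451, 329 and 361 CPM in APAP, and at 672, 494 and 836 CPM with dmPGE2+APAP. All 3 APAP libraries lay below every Control library, and the dmPGE2+APAP libraries all lay above APAP. The Control 3 value rests on 2 reads and lay only just above APAP 1, so the separation from Control rests on Control 1 and 2. Acss3, a mitochondrial synthetase for short-chain acids, read 304, 954 and 459 CPM in the Control libraries, 331, 658 and 519.7 in APAP, and 498, 293 and 531 with dmPGE2+APAP. Acsl1, which activates long-chain acids, read 459.7, 646 and 0 CPM in the Control libraries, 663, 548 and 361 in APAP, and 531, 293 and 357 with dmPGE2+APAP. For Acss3 and Acsl1 the 3 groups overlapped.

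Mitochondrial entry and beta-oxidation came next in the pathway. Cpt1a, the liver form of the outer-membrane carnitine palmitoyltransferase, read 596, 331 and 0 CPM in the Control libraries, 644, 192 and 346 in APAP, and 199, 313 and 226 with dmPGE2+APAP. Acadm, the medium-chain acyl-CoA dehydrogenase, read 576, 739 and 0 CPM in the Control libraries, 635, 548 and 722 in APAP, and 763, 787 and 619 with dmPGE2+APAP. Acadm was the steadiest of the 17 hosts, with a coefficient of variation of 13.4% over the 8 deep libraries, against 48.8% for Cpt1a. Acad11, another acyl-CoA dehydrogenase, read 609, 308 and 0 CPM in the Control libraries, 552, 329 and 404 in APAP, and 498, 373 and 470.4 with dmPGE2+APAP. In Acad11 the groups overlapped, and 4 of its 8 rings have an end inside another annotated gene (Ackr4 or Gm28305). Acadl, Hadha and Acaa2, which carry out further steps of the same spiral, averaged 24.5 to 49.6 CPM over the 8 deep libraries and were each read in 4 of them. Acaa1b, a peroxisomal thiolase with a close paralog, had 26 reads in Control 1 and none elsewhere, and Acad10 had 4 reads in 1 library.

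In peroxisomes, Acox2 opens the oxidation of branched chains and bile acid precursors. Acox2 read 486, 554 and 688 CPM in the Control libraries, 626, 639.5 and 404 in APAP, and 556, 363 and 679 with dmPGE2+APAP, and the groups overlapped. Hmgcs1, the cytosolic HMG-CoA synthase of cholesterol synthesis, was scarce, with 5 reads in dmPGE2+APAP 1 only.

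Among synthetic enzymes Acaca, the cytosolic acetyl-CoA carboxylase that supplies malonyl-CoA for new fatty acids, read 906, 485 and 2063 CPM in the Control libraries, 1307, 1124 and 938 in APAP, and 714, 888 and 1437 with dmPGE2+APAP. The Control 3 value rests on 9 reads; against Control 1 and 2 alone, all 3 APAP libraries lay higher. Acacb, the mitochondrial-membrane form that governs Cpt1a, read 84.2, 108 and 0 CPM in the Control libraries, 184, 82.2 and 0 in APAP, and 207, 30.3 and 148 with dmPGE2+APAP. Fads2, the delta-6 desaturase, had 1 ring and read 110.1, 177 and 0 CPM in the Control libraries, 138, 109.6 and 0 in APAP, and 66.4, 172 and 61.0 with dmPGE2+APAP. The groups overlapped for Acacb and Fads2. Elovl5, an elongase of polyunsaturated chains, was low in Control, at 19.4, 53.9 and 0 CPM from 3, 7 and 0 reads. It stood at 405, 54.8 and 129.9 CPM in APAP (44, 6 and 9 reads) and at 83.0, 262 and 209 CPM in dmPGE2+APAP (10, 26 and 24 reads). Every library of both treated groups lay above the Control libraries, APAP 2 by under 1 CPM. Elovl2, an elongase of longer polyunsaturated chains, had 8 reads in Control 2 and 9 in dmPGE2+APAP 1.

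Lipins are phosphatidate phosphatases, which make the diacylglycerol that Dgat2 turns into triglyceride. Lpin2, the main lipin enzyme of liver, read 900.0, 993 and 0 CPM in the Control libraries, 1049, 1498 and 606 in APAP, and 796, 1130.2 and 879.9 with dmPGE2+APAP, with full overlap. Lpin1, which also acts in the nucleus as a partner of PPAR alpha, read 447, 315 and 688 CPM in the Control libraries, 387, 466 and 202 in APAP, and 655, 605 and 828 with dmPGE2+APAP. The dmPGE2+APAP libraries all lay above the APAP libraries and above Control 1 and 2, while Control 3 (3 reads) fell among them. Dgat2 averaged 69.1 CPM and was read in 5 deep libraries.

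Lipases, thioesterases and lipid carriers were lower. Pnpla8, a calcium-independent phospholipase A2, read 123, 208 and 0 CPM in the Control libraries, 221, 219 and 72.2 in APAP, and 91.3, 232 and 174 with dmPGE2+APAP. Pnpla6, a lysophospholipase, read 45.3, 0 and 0 CPM in the Control libraries, 92.0, 109.6 and 115 in APAP, and 99.6, 0 and 61.0 with dmPGE2+APAP, so APAP lay above Control, on 8 to 12 reads a library in APAP and 0 to 7 in Control. Pnpla7 and Pnpla3, of the same family, were read in 3 deep libraries and in 1. Acot7, a long-chain acyl-CoA thioesterase, read 32.4, 46.2 and 0 CPM in the Control libraries, 304, 91.4 and 0 in APAP, and 207, 101 and 0 with dmPGE2+APAP. Acot12, a liver acetyl-CoA thioesterase, read 0, 23.1 and 0 CPM in the Control libraries, 18.4, 82.2 and 0 in APAP, and 49.8, 30.3 and 174 with dmPGE2+APAP. Its dmPGE2+APAP libraries lay above Control, on 3 to 20 reads each, against 0, 3 and 0 reads in the Control libraries. Control 2 and dmPGE2+APAP 2 had equal counts and differed in depth only. Osbpl1a, an oxysterol-binding protein of late endosomes, read 233, 377 and 0 CPM in the Control libraries, 423, 347 and 332 in APAP, and 373, 454 and 383 with dmPGE2+APAP. Osbpl11, of the same family, read 349.6, 369 and 0 CPM in the Control libraries, 322, 301 and 274 in APAP, and 315, 394 and 131 with dmPGE2+APAP. Without Control 3, Osbpl11 lay lower in every APAP library than in Control. Osbpl8 and Osbpl9, members of that family too, averaged 33.5 and 26.5 CPM.

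Hydroxysteroid dehydrogenases contributed almost nothing. Hsd17b4, the peroxisomal bifunctional enzyme, had 6 reads in APAP 3, and Hsd3b3, a steroid dehydrogenase with close paralogs, had 2 reads in Control 1 and 3 in dmPGE2+APAP 3. Of the regulators, Ppara (PPAR alpha, the fatty acid receptor of liver) read 201, 415 and 0 CPM in the Control libraries, 276, 128 and 231 in APAP, and 183, 313 and 427 with dmPGE2+APAP. Srebf2, the transcription factor of cholesterol genes, read 58.3, 30.8 and 0 CPM in the Control libraries, 46.0, 64.0 and 144 in APAP, and 99.6, 0 and 61.0 with dmPGE2+APAP. Both overlapped between groups. The PPAR coactivators Ppargc1b and Ppargc1a averaged 40.9 and 11.8 CPM.

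One ring often carried its host. Acadm novel_circ_0009177 held 95.2% of the reads of its host, with 89, 96 and 0 reads in the Control libraries, 64, 49 and 50 in APAP, and 86, 78 and 64 with dmPGE2+APAP. Acaca mmu_circ_0000301, exons 2 and 3 of a 56-exon transcript, held 88.8%, with 131, 59 and 5 reads in the Control libraries, 134, 101 and 59 in APAP, and 86, 83 and 124 with dmPGE2+APAP. These rings, of hosts in beta-oxidation and fatty acid synthesis, were both read in all 8 deep libraries.

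Other hosts spread their reads over rings that share ends. Lpin2 novel_circ_0005247 (exons 3 to 4) had 98, 67 and 0 reads in the Control libraries, 66, 70 and 21 in APAP, and 56, 48 and 45 with dmPGE2+APAP, 52.5% of the host. Lpin2 novel_circ_0005253 (exons 6 to 7) and novel_circ_0005248 (exons 3 to 7) held 21.96% and 20.3%. The longer ring joins the acceptor of the first to the donor of the second. Lpin1 had the most rings, 13, of which 10 share an acceptor and 7 share a donor with another. Its largest, novel_circ_0001879, had 51, 26 and 3 reads in the Control libraries, 16, 18 and 10 in APAP, and 30, 27 and 24 with dmPGE2+APAP, 45.2% of the host. In CPM, all 3 APAP libraries of this ring lay below every library of the other groups.

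Of the 8 Cpt1a rings 5 start at exon 2 and reach exons 5 to 12, and the one to exon 5, novel_circ_0006126, held 65.0%. All 4 Acox2 rings placed on exons end at exon 13, led by novel_circ_0003693 with 44, 38 and 3 reads in the Control libraries, 40, 31 and 15 in APAP, and 41, 24 and 61 with dmPGE2+APAP. Acss3 novel_circ_0000019 had 35, 54 and 2 reads in the Control libraries, 26, 33 and 24 in APAP, and 16, 8 and 26 with dmPGE2+APAP. Osbpl1a novel_circ_0005491 had 21, 37 and 0 reads in the Control libraries, 26, 27 and 15 in APAP, and 18, 32 and 35 with dmPGE2+APAP. The Acox2 and Osbpl1a rings overlapped between the groups. The Acss3 ring was lower in CPM in each dmPGE2+APAP library than in any library of the other groups, though dmPGE2+APAP 3 lay below Control 1 by under 1 CPM. Cpt1a novel_circ_0006126 had 64, 39 and 0 reads in the Control libraries, 26, 19 and 16 in APAP, and 11, 24 and 16 with dmPGE2+APAP. It overlapped between groups only through the 0 of Control 3: without that library both treated groups lay below Control in CPM.

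**Figure D2:**
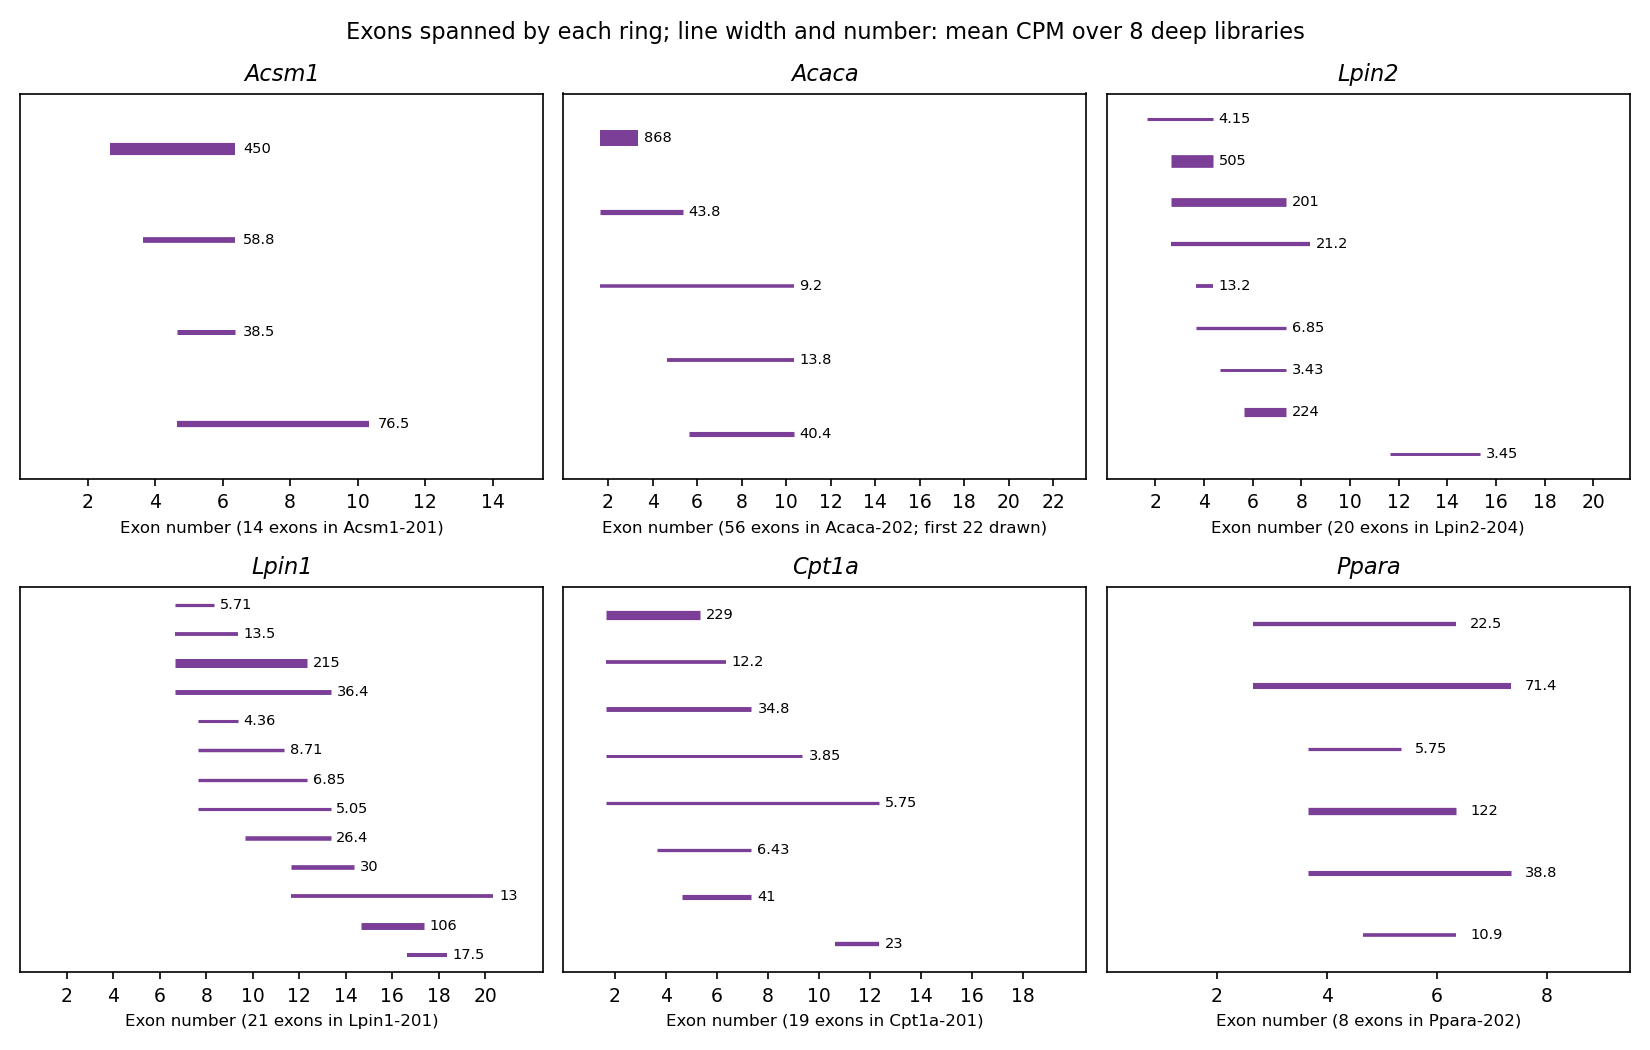
Exons covered by each ring placed on exon ends, for 6 hosts with several rings; the x axis is the exon number in the named transcript, and the line width and the number give the mean CPM over the 8 deep libraries. Rings stack on shared starts (Cpt1a exon 2) or shared ends (Acsm1 exon 6), and 1 ring leads in most hosts.

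In structure the shares lay near those over all listed rings, without a test. Both ends fell on exon ends of 1 transcript for 131 of 143 exonic rings (91.6%), against 93.0% of all 10591 exonic rings. Of those placed, 24.4% started at exon 2 (28.4% of all), the median ring spanned 4 exons in both, and the median spliced length, if every exon is kept, was 502 bases (498). Coding sequence alone made up 86.3% of the rings (85.2%). A start codon lay in 18 of them, 13.7% (12.9%), and a stop codon in 0 (1.11%). Flanking introns had medians of 4794 bases upstream and 3617 downstream, against 6532 and 4876. The unplaced rings include the larger Elovl5 ring, novel_circ_0014795, with 53.5% of its host.

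Non-junction reads are deposited too, as lists per ring, so a circular share can be formed: junction reads as a percent of junction plus non-junction reads. Such a list could be used for 78 of 146 rings. A list was set aside where its items did not match the libraries or might be 1 number split at its commas. Which rings stay thus depends in part on the size of their non-junction counts. The leading rings of Acsm1, Lpin1, Lpin2 and Cpt1a had no usable list. Acaca mmu_circ_0000301 had a median share of 70.6%, with 71.6%, 49.6% and 2.35% in the Control libraries, 71.7%, 70.6% and 72.8% in APAP, and 58.1%, 66.4% and 80.0% with dmPGE2+APAP. Acadm novel_circ_0009177 had a median of 43.2% over 8 libraries, from 34.4 to 50.6%. Acss3 novel_circ_0000019 stood at 45.5%, 37.2% and 3.17% in the Control libraries, 27.1%, 43.4% and 40.7% in APAP, and 14.5%, 10% and 26.8% with dmPGE2+APAP. Its dmPGE2+APAP libraries lay below every APAP library and below Control 1 and 2. Over the usable rings of these hosts the library medians ran from 7.96 to 20.6% in the 8 deep libraries, against 20.0 to 26.8% for usable rings of other hosts. How far the choice of usable lists shapes this gap was not tested. In Control 3 both were low, 2.35% and 3.39%. There the usable rings of other hosts (568) had 3124 junction and 215697 non-junction reads. In APAP 3 such rings (2476) had 48440 and 233326. Control 3 was thus poor in back-splice reads but not in the non-junction reads listed. The cause was not tested. The mean of the library medians was 13.1% for Control (18.5% without Control 3), 13.7% for APAP and 12.9% for dmPGE2+APAP, and with all 9 libraries the medians of the groups overlapped. Without Control 3 those of Control (16.4% and 20.6%) lay above those of dmPGE2+APAP (10.6 to 14.6%), and APAP overlapped both. Rings of other hosts also stood higher in Control 1 and 2 (25.6% and 26.8%) than with dmPGE2+APAP (21.1 to 23.3%) or in APAP (20.0 to 24.2%). The order of Control and dmPGE2+APAP was thus not particular to these hosts. Each library median covers its own set of rings.

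**Figure D3:**
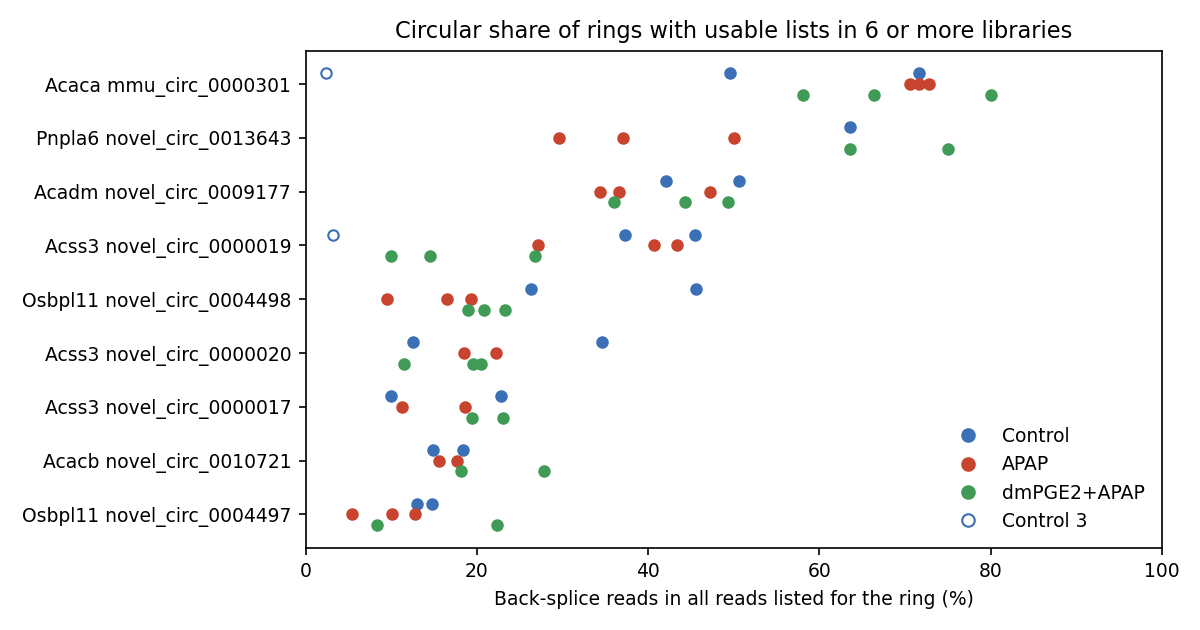
Circular share (x axis, percent of the reads listed for a ring that cross its back-splice junction) for the 9 rings with usable lists in 6 or more libraries, 1 point per library and coloured by group, open circle for Control 3. Acaca mmu_circ_0000301 is highest at a median of 70.6%, and the 2 points of Control 3 lie at 2.35% and 3.17%.

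The question of the study's first comparison is what an acetaminophen overdose does to these RNAs after 6 h. In the edgeR quasi-likelihood test none of the 40 hosts passed an adjusted p of 0.05 for APAP against Control, and none of the 146 rings did. The filter of at least 5 reads in at least 3 libraries admitted 30 hosts and 64 rings; the other 10 hosts had 4 to 26 reads in all, and the other 82 rings 2 to 26. Over all genes, 0.339% of 2358 tested hosts and 0.139% of 4331 tested rings passed. Without Control 3 these shares were 0.212% and 0.231%, again with 0 of these hosts and rings. DESeq2 and limma-voom also called 0 of them. At an unadjusted p under 0.05 stood 2 hosts, Acsm1 and Elovl5, which is 6.67% beside 5.34% of all hosts (the same 2 without Control 3, beside 5.22%), and 4 rings, 6.25% beside 5.17%. Counting hosts whose CPM ranges lay apart, 3 were higher in APAP (Elovl5, Pnpla6 and Ppargc1b), 10% beside 8.1% of all hosts, and Acsm1 alone was lower, 3.33% beside 2.25%. Ppargc1b lay apart narrowly, at 45.7 CPM from 5 reads in APAP 2 and 45.3 CPM from 7 reads in Control 1. Without Control 3, 4 were higher, with Acaca added (13.3% beside 9.71%), and 3 were lower, Acsm1, Dgat2 and Osbpl11 (10% beside 10.3%). Of the rings, 4 lay apart and higher (6.25% beside 6.93%) and 2 lower (3.12% beside 1.82%), the leading rings of Acsm1 and Lpin1. Without Control 3 the ring counts turned to more lower than higher, 7 lower (10.9% beside 10.8%) and 5 higher (7.81% beside 8.4%), and 3 rings had an unadjusted p under 0.05 (4.69% beside 4.64%). The median log2 fold change was 0.15 over the 30 hosts and 0.15 over all tested hosts, and -0.04 and -0.04 without Control 3.

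Acsm1 had the smallest p. Its host sum averaged 769 ± 277 CPM (SD, n = 3) in Control and 380.2 ± 63.3 in APAP, a log2 fold change of -1.11 ± 0.46 (SE), with an unadjusted p of 0.0161 and an adjusted p of 0.847 by edgeR. Without Control 3 the value was -1.32 ± 0.35, with a 95% interval of -2.03 to -0.62, an unadjusted p of 0.000543 and an adjusted p of 0.116. That was the smallest adjusted p of any of these hosts under any setting. Over the 16 alternative settings the fold change stayed between -1.32 and -0.91. The ring novel_circ_0012725, with 72.1% of the host's reads, counted 95, 105 and 2 reads in the Control libraries, 37, 31 and 20 in APAP, and 53, 36 and 53 with dmPGE2+APAP. Its log2 fold change was -1.06 ± 0.51 (adjusted p = 0.799 by edgeR), and -1.29 ± 0.38 without Control 3 (adjusted p = 0.236). The ring novel_circ_0012727, which lacks exon 3, counted 25, 17 and 0 reads in the Control libraries, 0, 0 and 0 in APAP, and 12, 0 and 9 with dmPGE2+APAP (unadjusted p = 0.00960, adjusted p = 0.799 by edgeR). The other 2 rings, on exons 5 to 6 and 5 to 10, had 0 to 23 reads a library and overlapped between Control and APAP. In CPM the ring on exons 5 to 10 lay higher in every dmPGE2+APAP library than in any library of the other groups. A joint test of the 3 groups gave Acsm1 an unadjusted p of 0.0474 (0.00215 without Control 3) and an adjusted p of 0.999 (0.350) by edgeR. In that test 0 of these hosts passed, beside 0.339% of all hosts (0.254%), and 1 had an unadjusted p under 0.05, beside 3.14% of all (2, Acsm1 and Lpin1, without Control 3, beside 3.9%).

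Elovl5 was next, at 24.4 ± 27.3 CPM in Control and 197 ± 184 in APAP (SD, n = 3 each), a log2 fold change of 2.50 ± 1.14 (SE) with an unadjusted p of 0.0299 and an adjusted p of 0.869 by edgeR. APAP 1 holds most of these reads: the log2 fold change was 1.37 without APAP 1, and 3.35 without Control 2, the Control library with 7 reads. Its ring mmu_circ_0001814 had 0, 0 and 0 reads in the Control libraries, 28, 0 and 0 in APAP, and 6, 5 and 21 with dmPGE2+APAP. All APAP reads of that ring were thus in 1 library. Acaca had the third smallest p, with a log2 fold change of 0.50 ± 0.39 (unadjusted p = 0.197, adjusted p = 1.00 by edgeR).

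Some hosts were measured well enough to bound a change. Without Control 3, the 95% interval lay inside a 2-fold change either way for 7 hosts in APAP against Control, among them Lpin2, Acadm, Acox2, Acsl1 and Lpin1. For Lpin1 the log2 fold change was -0.14, with an interval of -0.997 to 0.715. With all 9 libraries 1 host met that bound, and the median SE over the 30 hosts was 0.82, against 0.73 without Control 3. For the other hosts a change of 2-fold or more lies inside the interval. The intervals of Acsm1 and Elovl5 without Control 3 leave out 0. Those of the remaining hosts hold both 0 and a 2-fold change, so these data do not tell whether they differed.

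**Figure D4:**
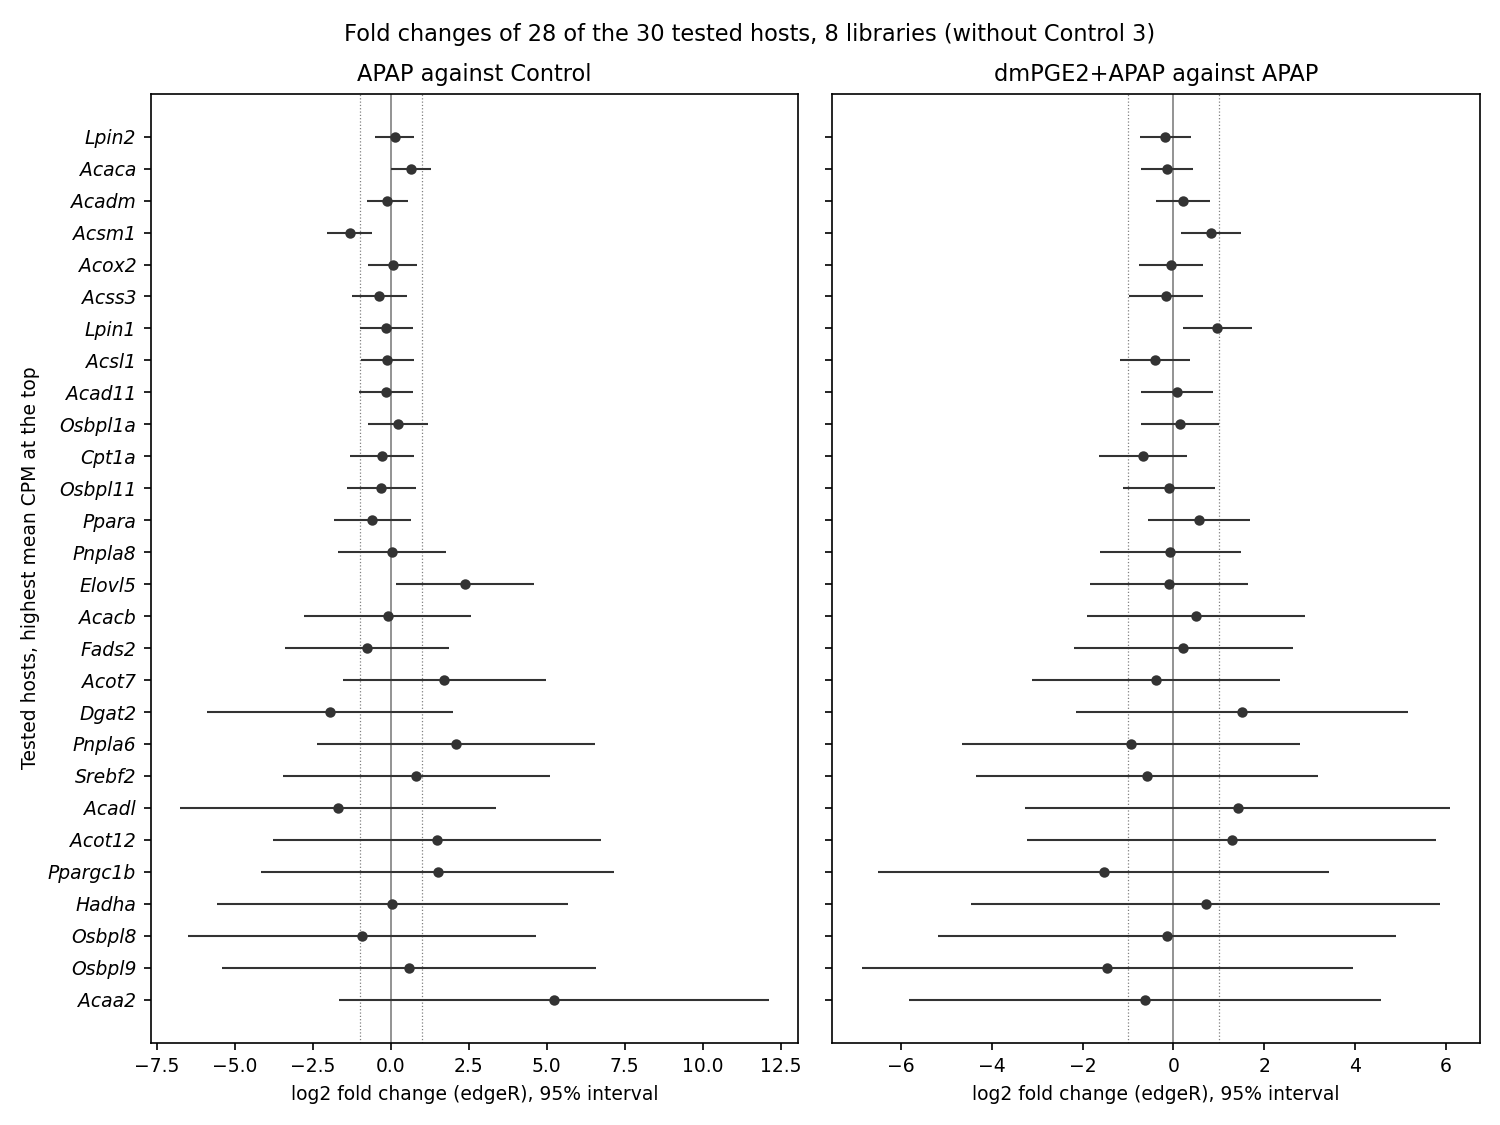
Log2 fold changes of 28 of the 30 tested hosts (points) with 95% intervals (lines) in the edgeR fit of the 8 deep libraries, for APAP against Control and dmPGE2+APAP against APAP; dotted lines mark 2-fold. Intervals are narrow for abundant hosts at the top, and Acsm1 (-1.32 and 0.83) and Lpin1 (0.97 on the right) are abundant hosts whose interval leaves out 0, as does that of the sparse Elovl5 on the left.

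The second comparison asks what dmPGE2 before APAP adds. For dmPGE2+APAP against APAP 0 of 30 tested hosts and 0 of 64 tested rings passed in edgeR, DESeq2 or limma-voom, where edgeR called 0.127% of all hosts and 0.0693% of all rings (0.17% and 0.0693% without Control 3). Unadjusted p was under 0.05 for 1 host, Lpin1 (3.33%, beside 2.71% of all hosts), and for 1 ring, novel_circ_0012727 of Acsm1 (1.56%, beside 3.81%, and beside 3.21% without Control 3). Without Control 3 there were 2 such hosts, Lpin1 and Acsm1 (6.67% beside 3.35%). The median log2 fold change was -0.08 over the 30 hosts and 0.03 over all tested hosts. Lpin1 averaged 352 ± 135 CPM in APAP and 696 ± 117 with dmPGE2+APAP (SD, n = 3 each), a log2 fold change of 0.98 ± 0.49 (SE) with an unadjusted p of 0.0454 and an adjusted p of 1.00 by edgeR. All 3 libraries were higher than all 3 of APAP, and the fold change stayed between 0.71 and 1.25 over the 16 alternatives.

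Acsm1 averaged 668 ± 171 CPM in dmPGE2+APAP, a log2 fold change of 0.83 ± 0.45 (SE) over APAP, with an unadjusted p of 0.0631 (0.0149 without Control 3) and an adjusted p of 1.00 by edgeR in both. Lpin1 and Acsm1 were the only tested hosts among the 30 with CPM ranges apart and higher, 6.67%, beside 5.47% of all tested hosts, and 0 lay apart and lower (4.54%). Of the rings, 5 lay apart and higher (7.81% beside 5.03%), among them the leading rings of both hosts, and 2 lower, that of Acss3 among them (3.12% beside 4.13%). APAP enters both comparisons of Acsm1, so its lower level against Control and higher level in dmPGE2+APAP are not independent. Cpt1a had the third smallest p, at -0.67 ± 0.60 (unadjusted p = 0.264, adjusted p = 1.00 by edgeR). Among rings, novel_circ_0004158 of Ppara had 0, 21 and 0 reads in the Control libraries, 0, 0 and 0 in APAP, and 0, 7 and 9 with dmPGE2+APAP. The Lpin2 ring novel_circ_0005249 had 6, 0 and 0 reads in the Control libraries, 0, 0 and 0 in APAP, and 6, 8 and 0 with dmPGE2+APAP. Both rest on 2 libraries of the dmPGE2+APAP group (adjusted p = 1.00 by edgeR for each).

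**Figure D5:**
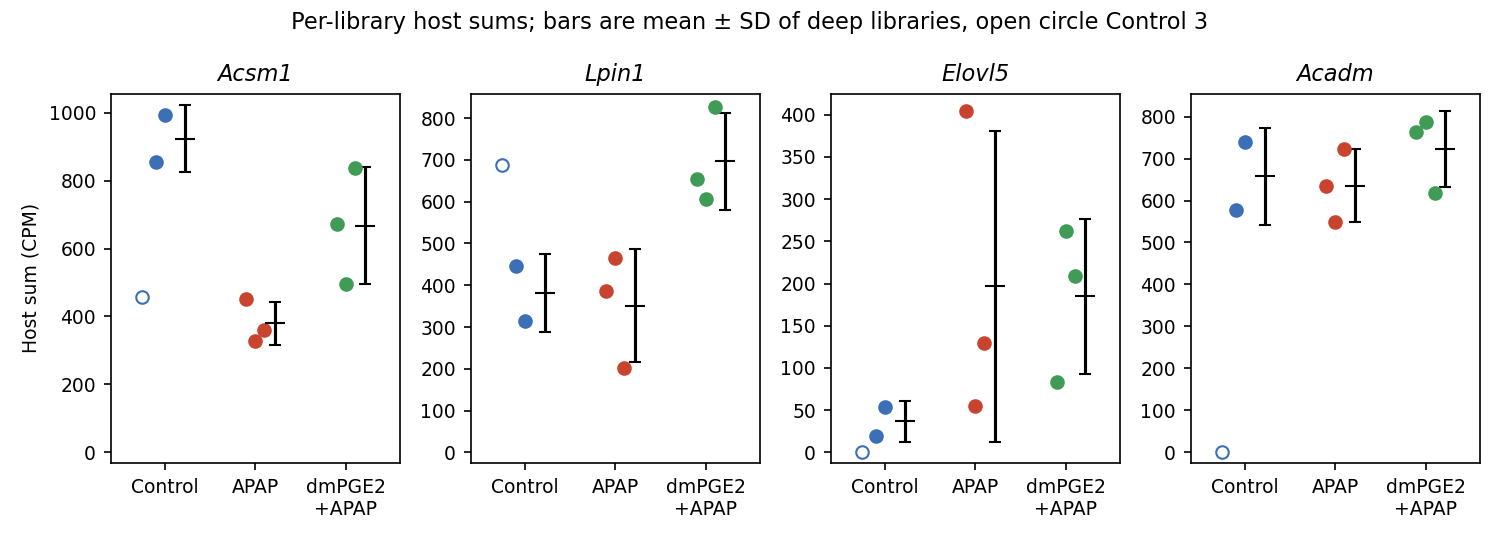
Host sums in CPM (y axis) of Acsm1, Lpin1, Elovl5 and Acadm by group, 1 filled point per deep library, bars for their mean ± SD (n = 2 in Control, n = 3 in the others), and an open circle for Control 3. The APAP points of Acsm1 lie below the filled Control points and the dmPGE2+APAP points, the dmPGE2+APAP points of Lpin1 lie above the APAP points, and the filled points of Acadm overlap.

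For dmPGE2+APAP against Control 0 of 30 hosts and 0 of 64 rings passed by any of the 3 tools, where edgeR called 0.17% of all hosts and 0.115% of all rings (0.127% and 0.0924% without Control 3). Elovl5 was the 1 host with an unadjusted p under 0.05 (3.33%, beside 4.24%, and beside 3.65% without Control 3), at 185 ± 92.1 CPM against 24.4 ± 27.3 (SD, n = 3 each), a log2 fold change of 2.40 ± 1.14 (SE), unadjusted p = 0.0365 and adjusted p = 1.00 by edgeR. Here the ring mmu_circ_0001814 was read in 3 of 3 dmPGE2+APAP libraries and 0 of 3 Control libraries (unadjusted p = 0.0119, adjusted p = 0.960 by edgeR). Lpin1 followed at 0.84 ± 0.51 (unadjusted p = 0.104) and Acot12 at 2.92 ± 2.48 (unadjusted p = 0.241). Acsm1 stood at -0.28 ± 0.44, and at -0.50 ± 0.34 without Control 3 (unadjusted p = 0.155). CPM ranges lay apart and higher for Elovl5 and Acot12, 6.67% beside 8.52% of all hosts, and lower for 0 (2.8%). Without Control 3, Lpin1 was added as higher (10% beside 10.4%), and Acsm1 and Cpt1a lay lower (6.67% beside 10.4%). Of the rings, 3 lay apart and higher (4.69% beside 8.1%) and that of Acss3 lower (1.56% beside 1.73%). Without Control 3 there were 9 lower (14.1% beside 10.4%) and 3 higher (4.69% beside 9.47%). At an unadjusted p under 0.05 stood 3 rings (4.69% beside 4.34%), the Elovl5 ring and a pair more. Without Control 3 that pair no longer stood there, and 4 rings did (6.25% beside 3.63%): the Elovl5 ring, Acss3 novel_circ_0000019, Cpt1a novel_circ_0006126 and Acsm1 novel_circ_0012725. Of the pair, novel_circ_0001517 of Acaca had 0, 0 and 0 reads in the Control libraries, 0, 9 and 0 in APAP, and 0, 5 and 25 with dmPGE2+APAP. The Pnpla8 ring mmu_circ_0000369 had 9, 11 and 0 reads in the Control libraries, 7, 0 and 0 in APAP, and 0, 0 and 0 with dmPGE2+APAP. Neither passed (adjusted p = 0.960 by edgeR for both).

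A wider list of 167 lipid genes, none of them among the 40, was read in the same way. Of these, 78 were hosts in the table and 54 were tested, and 0 passed in either direction in any of the 3 comparisons by edgeR, with 2, 4 and 4 at an unadjusted p under 0.05 (3.7%, 7.41% and 7.41%, beside 5.34%, 2.71% and 4.24% of all hosts). Their median log2 fold changes were 0.05, -0.05 and 0.07, beside 0.15, 0.03 and 0.20 over all tested hosts, all with 9 libraries. Without Control 3 they were -0.21 in APAP against Control, beside -0.04 over all, and -0.16 in dmPGE2+APAP against Control, beside 0.03. The most abundant were Mlxipl (ChREBP, the carbohydrate-responsive activator of lipid synthesis), Nr1h4 (FXR, the bile acid receptor) and Ncoa2 (a nuclear receptor coactivator), at 6093, 4922 and 2444 CPM on average over the 9 libraries. Without Control 3, Insig2, which holds SREBP in the endoplasmic reticulum, was called higher in APAP than in Control, 1 of 54 genes or 1.85%, beside 0.212% of all hosts. Its log2 fold change was 1.46 ± 0.33 (SE) with an adjusted p of 0.0320 by edgeR, against 1.53 ± 0.43 and 0.0936 with all 9 libraries. Insig2 had 47, 64 and 2 reads in the Control libraries, 133, 138 and 62 in APAP, and 92, 75 and 112 with dmPGE2+APAP.

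Markers of the cell types of liver were read from the same circRNA table. Of 14 hepatocyte markers 11 were hosts, among them Alb, Cps1 and Hnf4a, and their summed level was 1560.4 to 1631 CPM in the Control libraries, 1855 to 2454 in APAP and 1792 to 2082 with dmPGE2+APAP. Of 7 sinusoidal endothelial markers 4 were hosts, at 592 to 917 CPM, 289 to 460.1 and 374.6 to 498. Of 8 macrophage markers only Adgre1 and Mrc1 were hosts, at 917 to 2039 CPM, 736 to 2595 and 1983 to 2149. Of 6 cholangiocyte markers 1, Pkhd1, was a host. No marker of stellate cells, of neutrophils and lymphocytes or of adipocytes was in the table, which covers circRNAs only. The hepatocyte and endothelial sums therefore did not overlap between Control and either treated group. This also held without Control 3, where the endothelial sum of Control was 592 to 764 CPM. In Control 3 the hepatocyte sum rests on 5 Apoa1 and 2 Tat reads, and the endothelial sum on 4 F8 reads. Cps1 and Tat, most of the hepatocyte sum in the deep libraries, each overlapped between Control and APAP, while Alb lay higher in every APAP library. Apob and Pck1 overlapped there too. With dmPGE2+APAP, Cps1 lay above Control in every library, while Tat overlapped, as did Alb, at 0 CPM in dmPGE2+APAP 2. F8, the largest endothelial marker in Control 1 and 2 (473 and 315 CPM), overlapped with APAP (423, 201 and 0 CPM), as did Stab2. Every dmPGE2+APAP library lay below Control in F8. The part of these sums in the values of Acsm1, Elovl5 and Lpin1 was not tested.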

How the data were processed

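Liver circRNAs were measured in 9 libraries, from total RNA with ribosomal RNA removed and the strand marked, per the labels' protocols. Per the file headers, the authors deposited for each ring a count of back-splice reads and a TPM per library. The deposited counts are whole numbers, unscaled. The deposited TPM of the 6 APAP and dmPGE2+APAP libraries equals the count times 1 constant per library and was used only for that check. The 3 TPM columns coded like Control were not used. The submitters' processing notes list HISAT2 and, as build, GRCm38 (mm10); the circRNA caller is not given in the sources used here. Columns for APAP and dmPGE2+APAP match the sample titles; the 3 count columns coded BC, which no label explains, were assigned to Control by elimination.

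Members were taken by symbol and their counts summed per host. Members and lists were chosen with earlier results of these data known. CPM is reads per 1000000 of the library's back-splice reads. It is not scaled by the TMM factors, which for hosts were 1.58 in Control 3 and 0.924 to 1.00 in the other libraries. Where CPM ranges lie apart only narrowly, that scaling can change their order. For rings the Control 3 factor was 2.09. Divided by these factors, Acsm1 and its leading ring in Control 3 fall below every APAP library. Acss3 novel_circ_0000019 in Control 3 then falls among the dmPGE2+APAP libraries, and Ppargc1b in APAP 2 just below Control 1. These separations with all 9 libraries thus hold for unscaled CPM only. A read at a junction carries no length term. Hosts (2358) and rings (4331) that reached 5 reads in 3 or more of the 9 libraries entered edgeR 4.0.16 (quasi-likelihood F test, TMM, 3 groups, R 4.3.3), with Benjamini-Hochberg adjustment over all of them and a threshold of 0.05. The scripts were tested on simulated data with changes set in APAP against Control. There edgeR called 3 of 67 hosts and 2 of 67 rings changed 2-fold, and 45.5% and 36.4% of those changed 8-fold. A count of 0 called thus says little about 2-fold changes. DESeq2 1.42.0, limma-voom (limma 3.58.1), other scalings, no filter, only the 2 groups compared, the replicate number as a block and each library left out were alternatives. Ring ends were placed on GENCODE M21 exons, and junction sequences come from its transcripts.

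Values in every library are given for the 12 most abundant hosts, the 2 most abundant of each role, the 3 hosts and 3 rings with the smallest p in each comparison, the 10 most abundant rings and the 3 hosts with most rings. Values of some of these genes are not reported here. Same-numbered libraries did not deviate together (correlations -0.012 to 0.022), so the numbers were not taken as pairs. No pair of libraries in a group was alike within counting noise (chi-square per degree of freedom 5.33 to 7.22).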

Additional observations from a re-analysis of the deposited data

How the results depend on the processing

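No host and no ring of these genes was called under any of 16 alternative settings in the 3 pairwise comparisons, and no host under 13 in the joint test. Their smallest adjusted p over the settings was 0.116 for hosts and 0.225 for rings in APAP against Control, 0.814 and 0.602 in dmPGE2+APAP against APAP, and 0.734 and 0.489 in dmPGE2+APAP against Control. With the replicate number as a block, 0 hosts and 0 rings were called. Directions of Acsm1 (all comparisons), of Elovl5 against Control and of Lpin1 in dmPGE2+APAP held under all 16. Some log2 fold changes near 0 changed sign, and the cause was not tested. For Cpt1a in APAP against Control, near 0 in the main analysis, the value was 0.0101 with DESeq2's size factors in edgeR, 0.0248 by DESeq2 and 0.0941 with the replicate block, and ran from -0.58 to 0.64 with single libraries left out. Elovl5 in dmPGE2+APAP against APAP was 0.18 by limma-voom and ran from -0.53 to 1.05 with libraries left out. Leaving out libraries gave -0.47 to 0.0571 for Acaca in dmPGE2+APAP against APAP, -0.0081 to 0.60 for Acaca in dmPGE2+APAP against Control, and -0.43 to 0.12 for Lpin1 in APAP against Control. Depth limits the rest: 82 of 146 rings were too sparse to test, Control 3 holds 21 reads of these genes, and Control then rests on 2 libraries.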

Other observations

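A pair of rings with joint hosts lies at these genes and entered no comparison. The ring shared by Acsm1 and an unnamed feature was read in 3 libraries, with 6 reads for Control 2, 7 for APAP 1 and 8 for dmPGE2+APAP 3. The ring of Gm49388 and Hsd3b7, a bile acid synthesis gene, gave 7 and 5 reads for Control 1 and 2, 4 and 5 for APAP 1 and 2, and 0 in the other libraries.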
